A study of Homo sapiens with 3 samples.

Results

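The genes described here encode the heat shock proteins, the DNAJ co-chaperones and the cytosolic chaperonin, the main protein-folding machinery of human cells. They were taken by name from the deposited gene table, as the protein-coding genes whose symbols start with HSP, DNAJ or CCT2 to CCT8, together with TCP1, BAG3 and CRYAB and without HSPG2, a matrix proteoglycan gene. This gave 90 genes of the 58735 in the table, with HSPA14 present under a pair of identifiers. Each was placed by hand in the cytosol and nucleus (52 genes), the mitochondrion (9), the endoplasmic reticulum or ER (13), or a remaining class of 16 with other or uncertain locations, read-through genes among them.

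The study sequenced the RNA of 3 cultures, 1 per group, all labelled as HCT116 cells, an established line from a human colorectal carcinoma. The groups were cells overexpressing ZEB1 K80R, a form of the transcription factor ZEB1 with arginine in place of a lysine, cells overexpressing wild-type ZEB1, and cells carrying the empty vector. All cultures were kept at 37 °C in serum-containing medium, the treatment label of each was control, and no heat shock was named. The labels do not say whether a line was a clone or a pool, and the design text says that overexpression was checked by immunoblot before sequencing. Values were FPKM, which scale each gene's fragments by its length and by the size of its library, so levels of different genes could be set side by side. No group had a replicate. Every difference below is one between single libraries, with no test and no p-value, and a bulk library cannot tell fewer expressing cells from less RNA per cell.

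Chaperones hold unfolded proteins and help them fold. HSP70 proteins bind short exposed stretches in a cycle driven by ATP, DNAJ proteins deliver clients and start that cycle, and nucleotide exchange factors end it. HSP90 finishes clients such as kinases and receptors, while the chaperonin TRiC folds actin and tubulin inside a closed chamber of 8 different subunits. Mitochondria and the ER have their own HSP70 and HSP90 forms, and the mitochondrial matrix has its own chaperonin. Heat shock factor HSF1 drives many of the cytosolic and mitochondrial genes through heat shock elements, repeats of GAA in alternating orientation, and the unfolded protein response drives ER chaperones through ER stress elements.

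Library-wide facts bear on every comparison with the empty vector. The recovered reads summed to 13479517 with ZEB1 K80R, 14322537 with wild-type ZEB1 and 14764535 with empty vector. The library sizes behind the FPKM, recovered from the same values, were 1.33e+07, 1.38e+07 and 1.59e+07 in that order. The read sum was thus above this size in both overexpression libraries and below it with empty vector, and all FPKM ratios rest on these sizes. ZEB1 stood at 10.3, 9.83 and 5.66 FPKM in that order, so it was higher in both overexpression libraries, and the gene-level values do not tell the K80R form from the wild type. Mitochondrially encoded genes took 9.75%, 7.77% and 1.29% of reads, and genes with exactly 1 read numbered 2902, 2705 and 350. The part of these library differences in the results below was not tested. Of 12 markers of colon epithelium, 9 had no reads in any library, EPCAM, CDH1 and CDX2 among them, and 2, the keratins KRT8 and KRT18, reached an FPKM of 1, so the labelled tissue was not matched by its defining markers. All 4 mesenchymal markers had reads in each library, with summed levels of 1135, 1238 and 691 FPKM, and none of the 5 leukocyte, endothelial or hepatocyte markers reached an FPKM of 1.

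The promoters of some of the most abundant members carry the sequence elements linked above to HSF1 or to the unfolded protein response. The windows below run from 250 bases before to 50 bases after a RefSeq gene start (GRCh38.p14), are printed 5′ to 3′ on the strand of the gene, and carry the matches in capitals. The heat shock element searched was GAA, any 2 bases, TTC, any 2 bases and GAA, or its reverse complement. The ER stress element searched was CCAAT, any 9 bases and CCACG, on both strands. Overlapping matches were kept, and no window printed held both elements. A pair of cytosolic HSP90 genes, the cytosolic HSP70 gene HSPA8 and the mitochondrial chaperonin gene HSPD1 carry the first element, and the ER members HSPA5 and HSP90B1 carry the second.
HSP90AA1 (chr14:102086995-102087294, minus strand): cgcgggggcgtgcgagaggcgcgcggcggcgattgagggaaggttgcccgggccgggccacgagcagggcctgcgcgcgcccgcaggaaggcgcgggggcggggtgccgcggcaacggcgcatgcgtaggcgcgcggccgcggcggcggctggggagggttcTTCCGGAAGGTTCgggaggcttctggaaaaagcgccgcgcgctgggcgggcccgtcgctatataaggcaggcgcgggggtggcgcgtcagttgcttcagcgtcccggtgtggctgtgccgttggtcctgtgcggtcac
HSP90AB1 (chr6:44247693-44247992, plus strand): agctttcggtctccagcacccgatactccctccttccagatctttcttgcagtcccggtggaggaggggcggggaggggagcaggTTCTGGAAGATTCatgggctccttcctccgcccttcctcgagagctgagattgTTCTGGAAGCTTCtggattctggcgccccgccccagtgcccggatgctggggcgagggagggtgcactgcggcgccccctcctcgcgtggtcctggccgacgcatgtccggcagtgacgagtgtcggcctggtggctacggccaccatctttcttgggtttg
HSPA8 (chr11:123062087-123062386, minus strand): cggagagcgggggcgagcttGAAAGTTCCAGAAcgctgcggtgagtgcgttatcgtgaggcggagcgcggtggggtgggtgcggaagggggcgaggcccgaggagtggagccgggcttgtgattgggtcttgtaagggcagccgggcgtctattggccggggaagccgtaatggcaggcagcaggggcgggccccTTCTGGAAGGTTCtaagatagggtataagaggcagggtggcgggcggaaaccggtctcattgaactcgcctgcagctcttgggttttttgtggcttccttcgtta
HSPD1 (chr2:197499791-197500090, minus strand): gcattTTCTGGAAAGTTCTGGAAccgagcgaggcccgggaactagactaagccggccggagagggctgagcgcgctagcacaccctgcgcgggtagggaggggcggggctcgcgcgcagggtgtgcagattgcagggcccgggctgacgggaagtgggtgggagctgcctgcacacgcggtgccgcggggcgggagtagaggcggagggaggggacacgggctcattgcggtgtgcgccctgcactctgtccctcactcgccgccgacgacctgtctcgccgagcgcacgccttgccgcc
HSPA5 (chr9:125241294-125241593, minus strand): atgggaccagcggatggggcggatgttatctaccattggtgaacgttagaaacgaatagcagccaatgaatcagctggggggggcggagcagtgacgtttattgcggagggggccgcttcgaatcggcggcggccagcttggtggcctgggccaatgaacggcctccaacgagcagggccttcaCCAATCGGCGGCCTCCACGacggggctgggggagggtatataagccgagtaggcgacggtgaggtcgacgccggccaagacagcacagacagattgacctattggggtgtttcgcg
HSP90B1 (chr12:103930160-103930459, plus strand): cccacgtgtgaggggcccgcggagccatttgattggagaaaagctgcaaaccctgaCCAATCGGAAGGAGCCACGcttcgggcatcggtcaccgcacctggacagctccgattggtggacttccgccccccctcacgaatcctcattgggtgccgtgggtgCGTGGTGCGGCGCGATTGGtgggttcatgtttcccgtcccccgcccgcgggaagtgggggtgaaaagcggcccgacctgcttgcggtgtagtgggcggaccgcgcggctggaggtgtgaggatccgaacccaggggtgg

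Promoter windows were found for the symbols of 78 genes among the members. The heat shock element was present in 6 of 45 cytosolic genes, 1 of 9 mitochondrial genes and none of 12 ER genes, against 0.608% of the 27305 genes with a window. Besides the 4 printed, these were DNAJA1, DNAJB6 and HSPA6. The ER stress element was present in 2 of the 12 ER genes, the pair printed, against 0.0916% of all genes with a window. In the HSPA8 window the 2 matches begin 230 and 55 bases before the start, in the HSPA5 window the match begins 66 bases before it, and in the HSPD1 window a pair of overlapping matches begins 245 and 240 bases before it. HSPE1, the partner of HSPD1, is read in the opposite direction from a window at chr2:197500129-197500428, only 38 bases from the HSPD1 window. A match describes letters and shows no binding.

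Of the 90 genes, 64 averaged 1 FPKM or more over the 3 libraries and are called measured. The others were 18 genes with fewer reads and 8 with none, namely HSPB2, HSPB3, HSPB7, HSPB9, DNAJB8, CCT8L2 and a pair of read-through genes. Summed over all 90, the members stood at 4356 FPKM with ZEB1 K80R, 4280.4 with wild-type ZEB1 and 5064 with empty vector, or 2.38%, 2.08% and 2.61% of the FPKM of nuclear protein-coding genes. The cytosolic sum was 2995, 2876 and 3595 FPKM, and the mitochondrial sum 257, 257 and 378 FPKM. The ER sum was 1037, 1085 and 1016 FPKM. Summed cytosolic and mitochondrial chaperone mRNA was thus lower in both overexpression libraries than with empty vector and ER chaperone mRNA close to level, on the deposited scale. HSPD1 made up most of the mitochondrial sum, at 149, 144 and 256 FPKM. Of the 8 measured mitochondrial members, 4 were above and 4 below the empty vector level with either form of ZEB1.

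**Figure D1:**
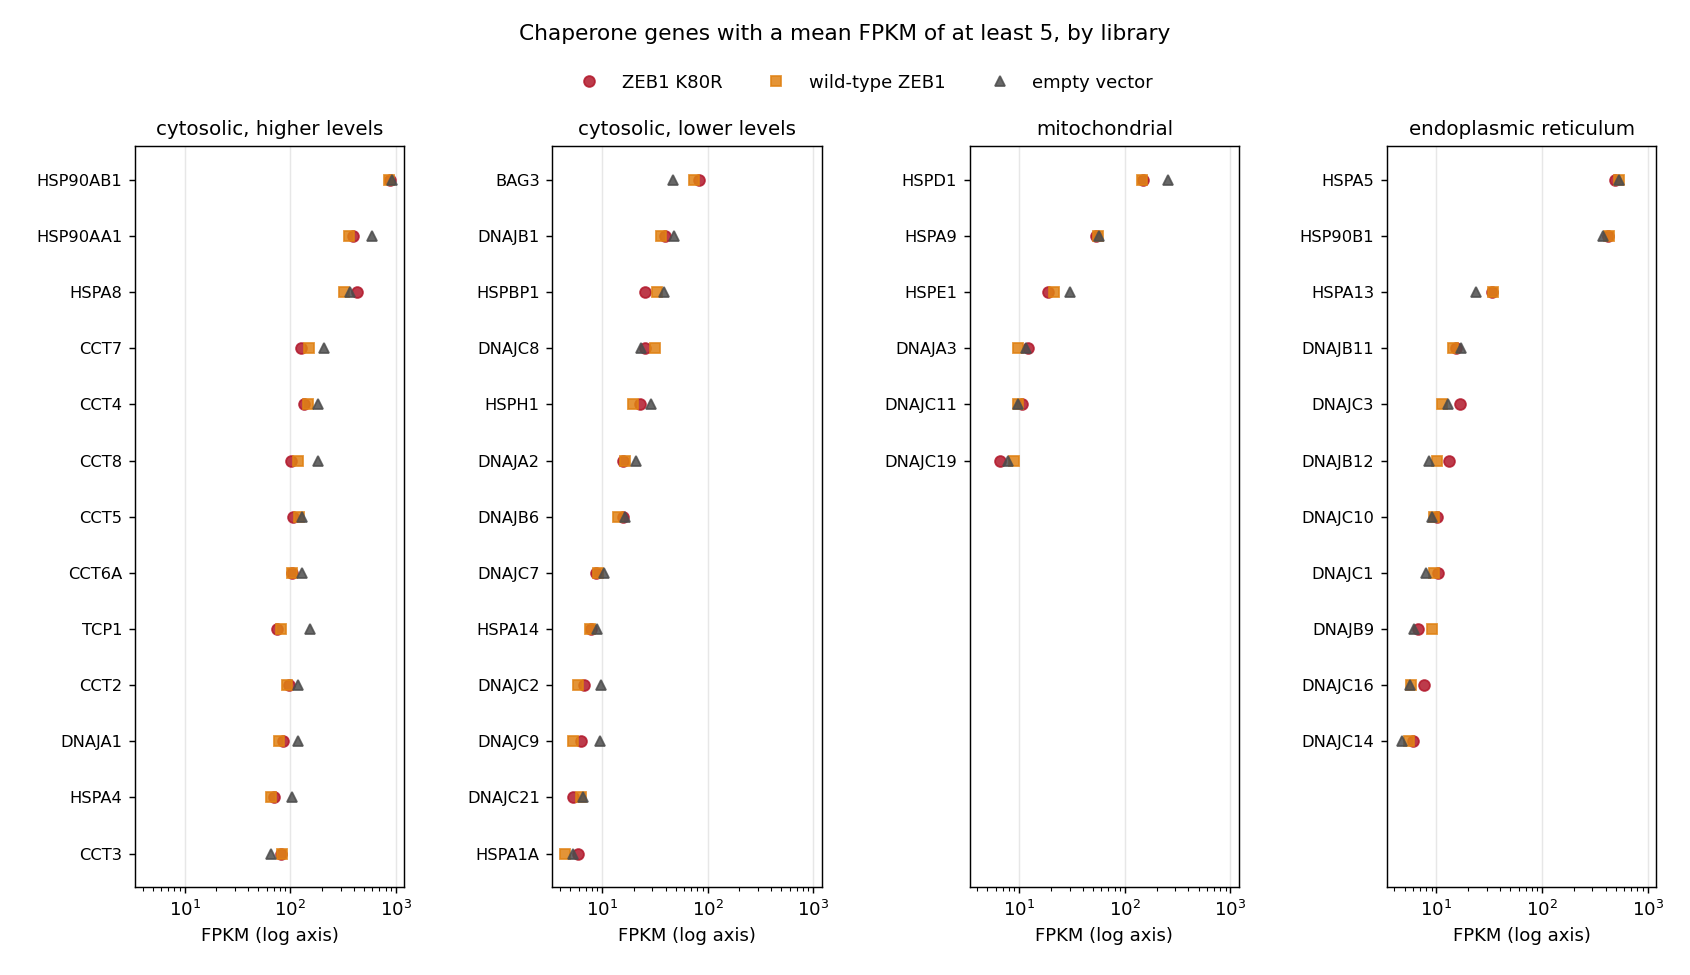
FPKM (log axis) of chaperone genes averaging 5 FPKM or more, by compartment, with circles for ZEB1 K80R, squares for wild-type ZEB1 and triangles for empty vector (1 library each). The empty vector triangle lies to the right for HSP90AA1, TCP1, CCT8 and HSPD1 and to the left for BAG3 and HSPA13.

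Between the overexpression libraries, few genes of any kind were past 1.5-fold, and the count of chaperone genes was near that of all genes. With ZEB1 K80R set against wild-type ZEB1, none of the 64 measured members was at least 1.5-fold higher as a ratio of FPKM + 1, where 1.33% of the 10372 measured protein-coding genes were, and 1 was at least 1.5-fold lower, where 3.87% were. The median difference of log2(FPKM + 1) was 0.07 for the 36 measured cytosolic members, −0.11 for the 8 mitochondrial and 0.07 for the 13 ER members, against −0.03 for all measured protein-coding genes. The differences of all 64 members ran from −0.60 to 0.55.

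DNAJC3, an ER lumenal J protein also known as P58IPK that was first described as an inhibitor of the kinase PKR, led the higher side. It stood at 16.8 FPKM with ZEB1 K80R, 11.2 with wild-type ZEB1 and 12.7 with empty vector. The ratio of ZEB1 K80R to wild-type ZEB1 was 1.51, with a 95% counting interval of 1.38 to 1.64, and as FPKM + 1 it lay just under the 1.5-fold mark. HSPA8, the constitutive cytosolic HSP70 (ENSG00000109971, chromosome 11, 123057489 to 123063230), stood at 433, 322 and 368 FPKM in the same order. Its ratio was 1.34 (1.32 to 1.37), and the wild-type library was the lowest of the 3. The ER membrane J proteins DNAJB12 and DNAJB14, which reach into the cytosol with their J domains and take part in degradation of ER proteins, had ratios of 1.31 (1.19 to 1.44) and 1.43 (1.30 to 1.59). HSPA1A, the stress-inducible HSP70, had 197 reads with ZEB1 K80R and 152 with wild-type ZEB1, a ratio of 1.34 (1.08 to 1.67). HSPA1B, which encodes nearly the same protein, had 176 and 155 reads, a ratio of 1.18 (0.942 to 1.47) whose interval includes 1. The split of reads between HSPA1A and HSPA1B is uncertain.

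DNAJB2, a cytosolic J protein that passes ubiquitinated clients to the proteasome, was the 1 gene past the mark on the lower side. It stood at 3.11 FPKM with ZEB1 K80R, 5.22 with wild-type ZEB1 and 4.51 with empty vector, a ratio of 0.596 (0.507 to 0.699) of ZEB1 K80R to wild-type ZEB1. Under 7 of the 11 other settings tried, a stricter filter that leaves it out among them, no member was past the mark on that side. Next came a pair of mitochondrial inner membrane J proteins. DNAJC30 stood at 2.42 FPKM with ZEB1 K80R and 3.996 with wild-type ZEB1, and DNAJC19, which works at the import motor, at 6.53 and 8.83 FPKM. DNAJB9, an ER J protein that turns off the sensor IRE1, stood at 6.75 and 9.10 FPKM. HSPBP1, a nucleotide exchange factor for HSP70, stood at 25.6 and 33.1 FPKM. Each of these genes was lower in the ZEB1 K80R library, and the counting intervals of their ratios lay below 1.

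Among the abundant members, HSP90AB1, HSPA5 and HSP90B1 differed less between the ZEB1 forms than HSPA8 did. HSP90AB1, the constitutive HSP90, stood at 886 FPKM with ZEB1 K80R and 858 with wild-type ZEB1, HSPA5 (BiP), the ER HSP70, at 489 and 536, and HSP90B1 (GRP94), the ER HSP90, at 419 and 432. These ratios were 1.03, 0.913 and 0.969. Ratios of genes within a library are free of any factor common to its genes. HSPA8 over HSPA5 was 0.885 (0.870 to 0.900) with ZEB1 K80R, 0.601 (0.590 to 0.612) with wild-type ZEB1 and 0.692 (0.681 to 0.703) with empty vector. The wild-type ZEB1 library thus had the least cytosolic HSP70 mRNA for its ER counterpart.

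**Figure D2:**
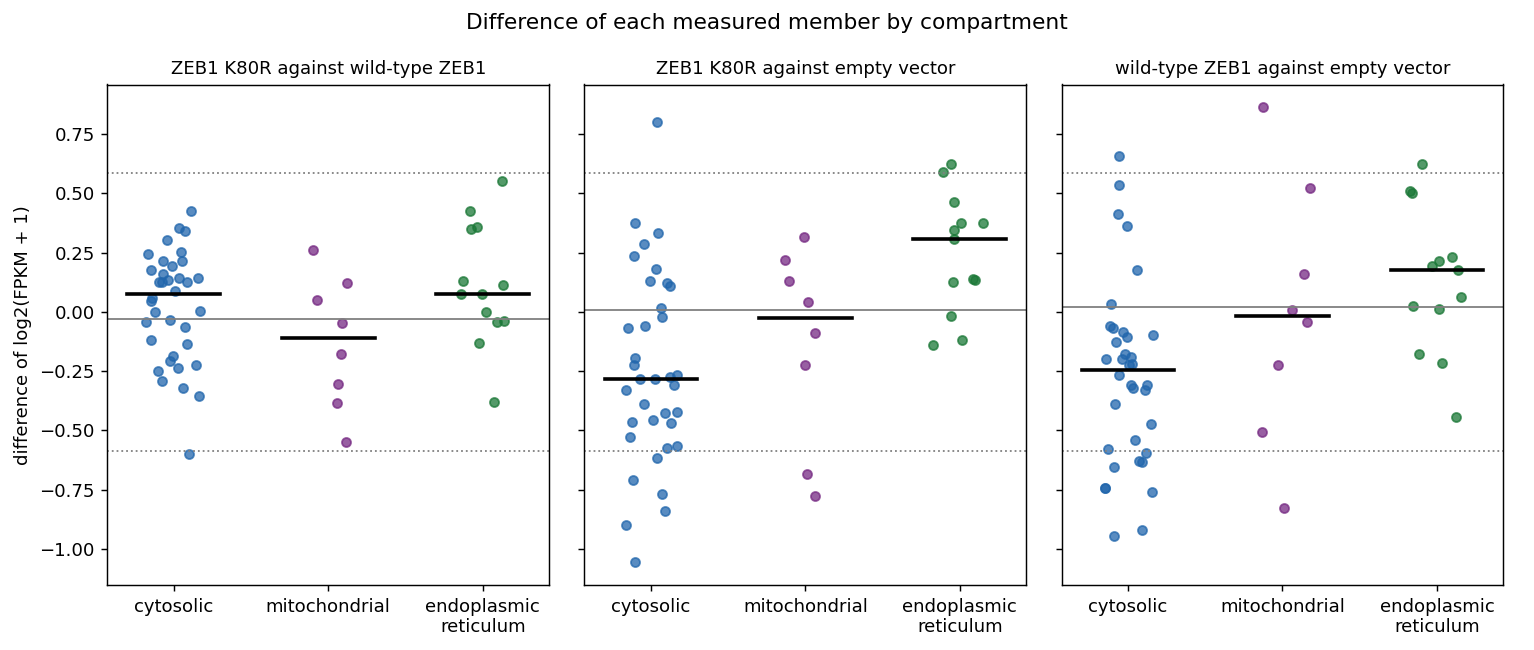
Difference of log2(FPKM + 1) of each measured member in 3 comparisons of single libraries, by compartment. Points are genes, black bars the medians, the solid grey line the median of all measured protein-coding genes and the dotted lines 1.5-fold. Against empty vector the cytosolic medians lie at −0.28 for ZEB1 K80R and −0.24 for wild-type ZEB1, and the ER medians at 0.31 and 0.18, on the deposited scale (−0.06 and −0.28 at a common sum).

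Against empty vector, cytosolic members were mostly lower and ER members mostly higher in both overexpression libraries on the deposited scale, though at a common sum of FPKM the ER medians were below 0. With ZEB1 K80R, 5 of the 64 measured members were at least 1.5-fold higher, where 9.68% of measured protein-coding genes were, and 9 were at least 1.5-fold lower, where 10.3% were. With wild-type ZEB1, 5 were higher, where 12.0% were, and 11 were lower, where 7.63% were. These were 7.81% higher and 14.1% lower of the measured members with ZEB1 K80R, and 7.81% higher and 17.2% lower with wild-type ZEB1, so the share lower with wild-type ZEB1 was more than double that of all genes and the others lay nearer to it. By compartment, 6 of 36 cytosolic members were lower and 1 higher with ZEB1 K80R, and 9 lower and 1 higher with wild-type ZEB1. The 8 mitochondrial members had 2 lower and none higher with ZEB1 K80R, and 1 lower and 1 higher with wild-type ZEB1. None of the 13 ER members was lower in either, and 2 with ZEB1 K80R and 1 with wild-type ZEB1 were higher.

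By the medians, in which small differences count, cytosolic members were lowest and ER members highest. The counts with ZEB1 K80R did not give that order, with 25% of mitochondrial and 16.7% of cytosolic members lower. Cytosolic members had a median of −0.28 with ZEB1 K80R and −0.24 with wild-type ZEB1, mitochondrial members −0.03 and −0.02, and ER members 0.31 and 0.18, against 0.01 and 0.02 for all measured protein-coding genes. Of the 36 cytosolic members 26 and 30 were below 0, and of the 13 ER members 10 and 10 were above 0, in the same order. The ER median exceeded the cytosolic one by 0.59 with ZEB1 K80R and by 0.42 with wild-type ZEB1. At a common sum of FPKM, where the median of all measured genes shifted to −0.37 and −0.36, the ER medians were −0.06 and −0.28, below 0, while the ER median remained above the cytosolic one by 0.65 and 0.38. Both comparisons use the same empty vector library, so they are not independent of each other.

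Of the cytosolic HSP90 genes, the inducible form was well below its empty vector level on the deposited scale and the constitutive form was not. HSP90AA1, the stress-inducible HSP90 (ENSG00000080824, chromosome 14, 102080738 to 102139699), stood at 392 FPKM with ZEB1 K80R, 359 with wild-type ZEB1 and 601 with empty vector. It was 0.652 (0.643 to 0.662) and 0.597 (0.588 to 0.606) of the empty vector level. Its close relative HSP90AB1 was at 0.959 and 0.929 of that level. At a common sum both were below it, at 0.481 and 0.435 for HSP90AA1 and 0.707 and 0.676 for HSP90AB1. The ratio of HSP90AA1 to HSP90AB1 within a library, which does not depend on library scaling, was 0.443 (0.436 to 0.450), 0.419 (0.412 to 0.425) and 0.651 (0.643 to 0.659) with ZEB1 K80R, wild-type ZEB1 and empty vector. The HSP110 proteins are nucleotide exchange factors that act with HSP70 in dissolving aggregates, and their 3 genes were below the empty vector level in both libraries. HSPA4 stood at 70.4, 66.2 and 104.6 FPKM, HSPH1 at 23.1, 19.8 and 29.2, and HSPA4L at 2.93, 2.18 and 4.39.

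The HSP70 genes HSPA8, HSPA1A and HSPA1B did not follow that pattern with ZEB1 K80R on the deposited scale. HSPA8 was at 1.18 (1.16 to 1.197) of the empty vector level with ZEB1 K80R and at 0.876 (0.860 to 0.892) with wild-type ZEB1, or 0.868 and 0.638 at a common sum. The inducible genes HSPA1A and HSPA1B were low throughout, at 5.96, 4.44 and 5.35 FPKM for HSPA1A and 5.24, 4.46 and 4.79 for HSPA1B, and their intervals against empty vector included 1. At a common sum the ratios to empty vector were 0.821 and 0.604 for HSPA1A and 0.806 and 0.677 for HSPA1B. Both genes encode nearly the same protein, so the split of reads between them is uncertain. HSPA6, a strictly inducible HSP70, had only 14, 5 and 13 reads.

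Most of the J proteins of the cytosol named here were lower to different degrees, and some were higher. DNAJA1 stood at 85.3 FPKM with ZEB1 K80R, 77.7 with wild-type ZEB1 and 118 with empty vector, and DNAJB1, the main heat-inducible J protein, at 39.9, 36.5 and 48.2. DNAJB6, which suppresses aggregation of polyglutamine proteins, stood at 15.7, 14.3 and 16.5 FPKM, or 0.9499 and 0.864 of the empty vector level. DNAJC24, needed for the diphthamide modification of elongation factor 2, had the lowest ratios of the measured cytosolic J proteins. It stood at 1.80, 1.48 and 3.77 FPKM, or 0.477 (0.399 to 0.568) and 0.392 (0.325 to 0.472) of the empty vector level. On the higher side, DNAJB5 stood at 1.41, 1.87 and 0.983 FPKM, or 1.44 (1.08 to 1.92) and 1.90 (1.46 to 2.49) of the empty vector level. Its ratios were 1.06 and 1.38 at a common sum, and it passed the filter only through the overexpression libraries. DNAJC8, found with the splicing machinery, stood at 25.7, 31.7 and 23.6 FPKM, ratios of 1.09 and 1.35 that became 0.804 and 0.979 at a common sum. DNAJB2 was 0.690 of the empty vector level with ZEB1 K80R and 1.16 with wild-type ZEB1, or 0.508 and 0.842 at a common sum. DNAJC5, the cysteine-string protein of secretory vesicles, which was placed in the remaining class, stood at 21.5, 18.7 and 35.7 FPKM.

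BAG3 was higher and its small heat shock partner HSPB8 lower in both overexpression libraries. BAG3, a scaffold that links HSP70 and small heat shock proteins to selective autophagy (ENSG00000151929, chromosome 10, 119651370 to 119677819), stood at 82.3 FPKM with ZEB1 K80R, 74.5 with wild-type ZEB1 and 46.9 with empty vector. It was 1.76 (1.66 to 1.86) and 1.59 (1.501 to 1.68) times the empty vector level, and 1.30 and 1.16 times at a common sum, under the 1.5-fold mark. As FPKM + 1, BAG3 was the only measured cytosolic member at least 1.5-fold higher in either library on the deposited scale. HSPB8 stood at 1.36, 1.95 and 3.41 FPKM from 52, 77 and 155 reads, or 0.400 (0.286 to 0.551) and 0.572 (0.429 to 0.757) of the empty vector level.

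The other small heat shock genes were nearly silent. HSPB1 (HSP27), which is abundant in many epithelial cancer cells, had 6 reads with ZEB1 K80R, 14 with wild-type ZEB1 and 0 with empty vector, where a count of 0 allows an FPKM of up to 0.116. CRYAB (αB-crystallin) had 1, 0 and 0 reads. Of the 8 small heat shock genes, HSPB8 alone was measured.

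The chaperonin TRiC was lower in both overexpression libraries for most of its subunits, and by unequal amounts. TCP1, its alpha subunit (ENSG00000120438, chromosome 6, 159778498 to 159789749), stood at 74.2 FPKM with ZEB1 K80R, 81.6 with wild-type ZEB1 and 155 with empty vector. It was 0.478 (0.462 to 0.494) and 0.525 (0.509 to 0.542) of the empty vector level. CCT8 stood at 102, 118 and 184 FPKM, and CCT7 at 127, 150.0 and 208. Less far below were CCT4 at 135, 147 and 182, CCT6A at 104, 104 and 129, CCT2 at 97.2, 93.4 and 118, and CCT5 at 105, 119.7 and 128 FPKM. These 7 subunits were thus highest in the empty vector library. CCT3, the gamma subunit (ENSG00000163468, chromosome 1, 156308968 to 156367873), was the exception at 82.5, 84.4 and 65.4 FPKM, though at a common sum its ratios to empty vector were 0.931 and 0.940.

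**Figure D3:**
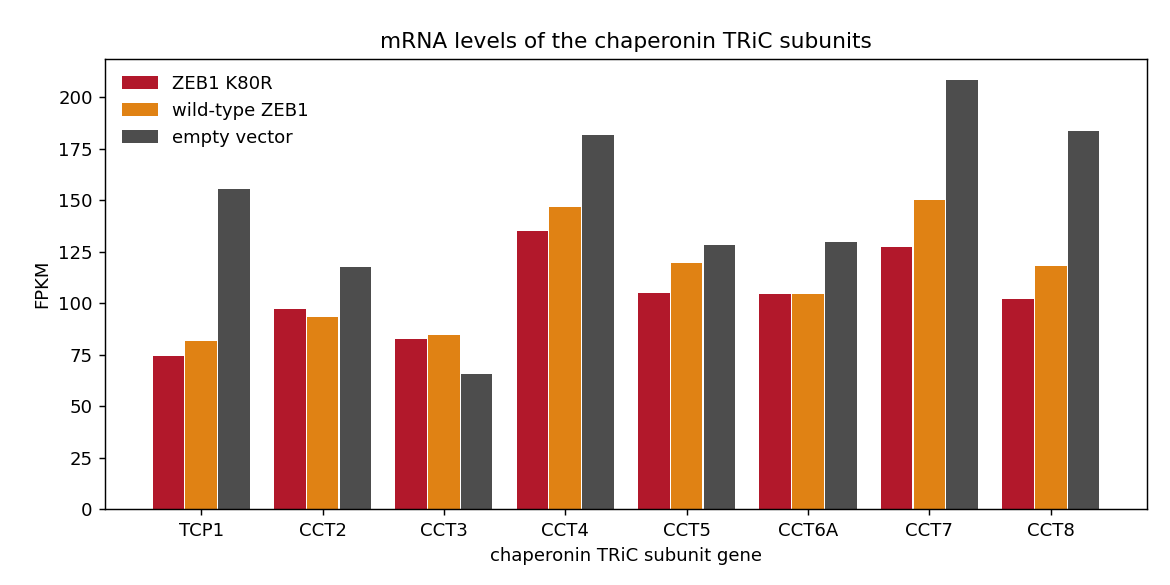
FPKM of the 8 subunit genes of the chaperonin TRiC (bars, from 0) in the ZEB1 K80R, wild-type ZEB1 and empty vector libraries, 1 library each. The empty vector bar is the highest of the 3 for all subunits except CCT3.

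TRiC holds its subunits in equal numbers, and their mRNA levels were spread more widely in the empty vector library, which rested on CCT3. The highest subunit exceeded the lowest 1.82-fold with ZEB1 K80R, 1.84-fold with wild-type ZEB1 and 3.19-fold with empty vector. Without CCT3, an alternative chosen after seeing the data, the same ratios were 1.82, 1.84 and 1.77, and the SD was 18.8%, 22.04% and 21.8% of the mean. The mean over the 8 subunits was 103 ± 20.3 FPKM, 112 ± 26.3 and 146 ± 45.7 FPKM (SD over subunits). Relative to the subunit mean of its own library, TCP1 was at 0.717, 0.727 and 1.06 and CCT3 at 0.797, 0.752 and 0.447, and these shares do not depend on library scaling. TCP1, CCT4 and CCT5 share 11.1%, 12.6% and 30.1% of their exonic bases with other annotated genes, and reads on such bases may have been left out or misassigned.

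Among mitochondrial members, the chaperonin pair was further below its empty vector level than the matrix HSP70. HSPD1 (HSP60; ENSG00000144381, chromosome 2, 197486581 to 197516737) stood at 149 FPKM with ZEB1 K80R, 144 with wild-type ZEB1 and 256 with empty vector. Its lid HSPE1 (HSP10; ENSG00000115541, chromosome 2, 197499994 to 197503457) stood at 18.7, 21.2 and 30.6 FPKM. Against empty vector the ratios were 0.583 (0.568 to 0.598) and 0.563 (0.548 to 0.578) for HSPD1, and 0.611 (0.547 to 0.681) and 0.694 (0.625 to 0.770) for HSPE1. Both genes of this head-to-head pair were lower in both overexpression libraries. HSPE1 shares 23.9% of its exonic bases with other annotated genes, and its level relative to HSPD1 may be too low.

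HSPA9 (mortalin), the matrix HSP70 that also pulls proteins through the import channel, stood at 53.9, 55.7 and 57.5 FPKM, or 0.938 (0.906 to 0.971) and 0.969 (0.937 to 1.002) of the empty vector level, and 0.691 and 0.705 at a common sum. DNAJA3, its J protein, stood at 11.99, 9.83 and 11.6 FPKM. The ratio of HSPA9 to HSPD1 was 0.362 (0.350 to 0.374) with ZEB1 K80R, 0.387 (0.374 to 0.400) with wild-type ZEB1 and 0.225 (0.219 to 0.231) with empty vector. The mitochondrial HSP70 mRNA was therefore more abundant relative to that of the chaperonin in both overexpression libraries.

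Small J proteins of the mitochondrial inner membrane had no common direction with ZEB1 K80R against empty vector. With wild-type ZEB1, DNAJC19, DNAJC30 and DNAJC15 were each above the empty vector level on the deposited scale. Set against wild-type ZEB1, ZEB1 K80R had lower levels of each, at 0.739, 0.605 and 0.759. DNAJC19, at 6.53, 8.83 and 7.79 FPKM, was 0.838 (0.723 to 0.971) of the empty vector level with ZEB1 K80R and 1.13 (0.991 to 1.296) with wild-type ZEB1, or 0.618 and 0.825 at a common sum. DNAJC30, which binds ATP synthase, stood at 2.42 FPKM with ZEB1 K80R, 3.996 with wild-type ZEB1 and 1.75 with empty vector, from 80, 137 and 69 reads. It was 2.29 (1.70 to 3.10) times the empty vector level with wild-type ZEB1 and 1.38 (0.989 to 1.94) times with ZEB1 K80R. At a common sum these ratios were 1.66 and 1.02, and DNAJC30 shares 14.4% of its exonic bases with other annotated genes. DNAJC15, a relative of DNAJC19, stood at 2.84, 3.74 and 2.30 FPKM, ratios of 1.23 and 1.63 to empty vector that became 0.909 and 1.18 at a common sum. DNAJC4, whose location was held uncertain and which shares 13.9% of its exonic bases with other genes, had the widest difference of all members. It stood at 3.88, 4.52 and 0.718 FPKM from 145, 175 and 32 reads, and it passed the filter only through the overexpression libraries.

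**Figure D4:**
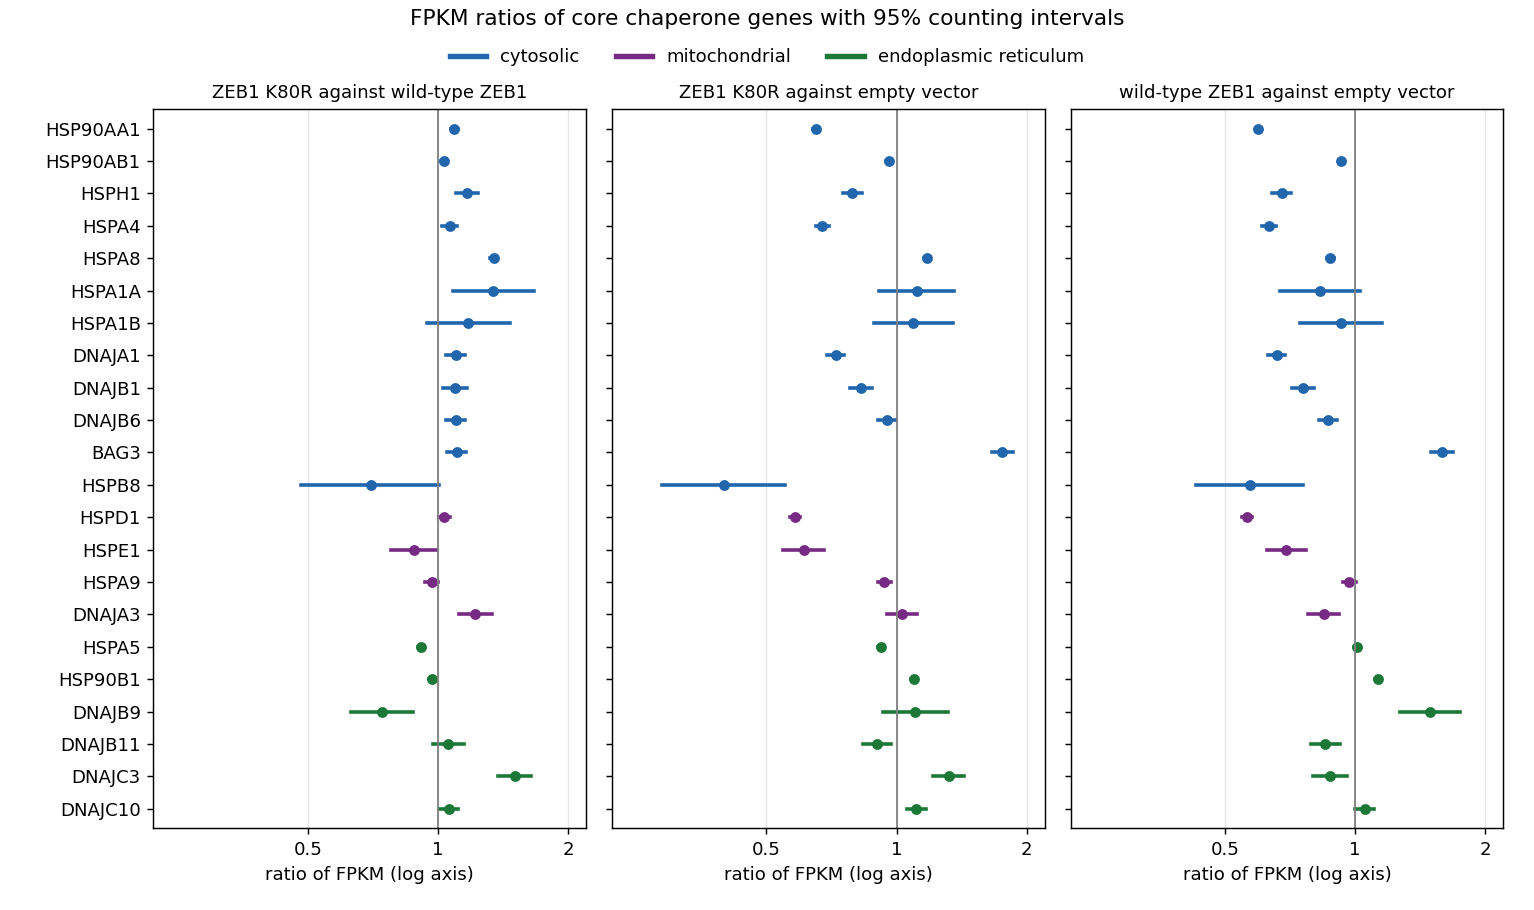
Ratios of FPKM (log axis) of core chaperone genes in 3 comparisons, with 95% counting intervals as lines, coloured by compartment. HSP90AA1 (0.652 and 0.597) and HSPD1 (0.583 and 0.563) lie left of 1 against empty vector, BAG3 (1.76 and 1.59) lies right of it, and most ratios of ZEB1 K80R to wild-type ZEB1 lie near 1.

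In the ER, on the deposited scale, the abundant lumenal chaperones were close to level and the members past 1.5-fold were membrane J proteins. HSPA5 (ENSG00000044574, chromosome 9, 125234853 to 125241330) stood at 489 FPKM with ZEB1 K80R, 536 with wild-type ZEB1 and 531 with empty vector, ratios of 0.920 (0.906 to 0.936) and 1.01 (0.993 to 1.02) to empty vector. At a common sum these ratios were 0.679 and 0.734, below 1. HSP90B1 (ENSG00000166598, chromosome 12, 103930107 to 103953645) stood at 419, 432 and 382 FPKM. Its ratio to HSPA5 within a library was 0.856 (0.842 to 0.871), 0.806 (0.793 to 0.820) and 0.719 (0.708 to 0.730), so GRP94 mRNA was higher relative to BiP mRNA in both overexpression libraries. Its ratios to empty vector, 1.10 and 1.13, were 0.808 and 0.823 at a common sum, below 1.

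DNAJC18, an ER membrane J protein, stood at 4.25 FPKM with ZEB1 K80R, 4.25 with wild-type ZEB1 and 2.41 with empty vector. It was 1.76 (1.497 to 2.08) times the empty vector level in each overexpression library, and 1.299 and 1.28 times at a common sum, under the 1.5-fold mark. DNAJB12 stood at 13.2, 10.1 and 8.45 FPKM and passed the 1.5-fold mark with ZEB1 K80R alone, at a ratio of 1.57 (1.42 to 1.72). At a common sum that ratio was 1.15, while the ratio with wild-type ZEB1 turned to 0.869 from 1.19 as deposited. HSPA13, a truncated ER HSP70, stood at 33.2, 34.2 and 23.8 FPKM, ratios of 1.39 and 1.43 to empty vector that became 1.03 and 1.04 at a common sum. The lumenal J proteins showed no common direction, with DNAJB11, a BiP partner in folding, at 15.2, 14.4 and 16.9 FPKM, DNAJC10, a disulfide reductase, at 10.1, 9.50 and 9.04, and DNAJB9 at 6.75, 9.10 and 6.10. DNAJB14, at 5.29, 3.69 and 5.37 FPKM, had the lowest ratio to empty vector of the 13 ER members with wild-type ZEB1, 0.687 (0.623 to 0.757). HSPBAP1, a protein that binds HSPB1 and was placed in the remaining class, stood at 4.32, 4.18 and 2.33 FPKM and was past 1.5-fold in both libraries, with ratios of 1.86 and 1.79 that at a common sum became 1.37 and 1.31, under the mark.

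The wider folding network was taken from lists set out by role, and its counts stand against the shares of all measured genes, 9.68% higher and 10.3% lower with ZEB1 K80R and 12.0% higher and 7.63% lower with wild-type ZEB1. Counts and medians of the lists are on the deposited scale alone. Among 22 measured HSP90 and HSP70 co-chaperones, 5 were lower and none higher with ZEB1 K80R against empty vector (median −0.27), and 2 were lower and 1 higher with wild-type ZEB1 (median −0.19). That is 22.7% lower with ZEB1 K80R and 9.09% lower with wild-type ZEB1, the second near the share of all genes. BAG1, a nucleotide exchange factor, stood at 3.58, 3.27 and 7.75 FPKM, and UNC45A, a myosin chaperone, at 9.91, 11.6 and 20.4. Of 9 prefoldin and phosducin-like genes, which feed clients to TRiC or assist it, 4 were lower and none higher with ZEB1 K80R (median −0.51), and 1 was lower and 1 higher with wild-type ZEB1 (median −0.14). The phosducin-like gene PDCL stood at 6.97, 7.26 and 12.1 FPKM, and the prefoldin subunit gene PFDN6, on the higher side, at 13.5, 17.4 and 9.59. Prefoldin is thus another complex whose subunits did not share a direction on the deposited scale.

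Mitochondrial partners and proteases had 1 of 15 lower and none higher with ZEB1 K80R (median −0.18), and 1 higher and none lower with wild-type ZEB1 (median −0.10), which is 6.67% lower with ZEB1 K80R and no more than the share of all genes in either direction against empty vector. The matrix protease gene LONP1 stood at 39.2, 60.2 and 68.3 FPKM and CLPP at 17.5, 27.8 and 16.1. Set against wild-type ZEB1, ZEB1 K80R had 0.651 (0.620 to 0.684) of the LONP1 level and 0.629 (0.563 to 0.701) of the CLPP level, the 2 of 15 past the mark in that comparison. That is 13.3% of the list, where 3.87% of all measured genes were lower. The 18 ER folding factors had 2 higher and 3 lower with ZEB1 K80R (median 0.27) and 3 higher and 2 lower with wild-type ZEB1 (median 0.29), or 11.1% and 16.7%, and 16.7% and 11.1%, of the list. Both medians are on the deposited scale, and values of this list at a common sum are not given. That sum took the medians of the ER members to −0.06 and −0.28, below 0. The ER stress sensor ATF6 stood at 17.0, 13.9 and 8.69 FPKM, while SDF2L1, a DNAJB11 partner, stood at 22.2, 23.6 and 44.8, and XBP1, the factor activated by IRE1, at 29.2, 43.7 and 55.7.

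HSF1 itself stood at 18.6 FPKM with ZEB1 K80R, 24.0 with wild-type ZEB1 and 21.9 with empty vector, and of the 3 heat shock factor genes only HSF4 was past 1.5-fold, at 2.89, 3.26 and 1.23 FPKM, higher in both overexpression libraries. Of 11 other heat shock factor targets, which include the co-chaperones STIP1, AHSA1, FKBP4 and CHORDC1 of the list above and the collagen chaperone SERPINH1, 1 was higher and 2 were lower with ZEB1 K80R against empty vector (median −0.06), and 1 was higher and 1 lower with wild-type ZEB1 (median 0.29). As shares of the list that is 9.09% higher and 18.2% lower with ZEB1 K80R, and 9.09% each way with wild-type ZEB1. HMOX1, which degrades haem, stood at 8.27, 10.4 and 4.92 FPKM and IER5, which promotes HSF1 activity, at 19.97, 23.0 and 52.0. These 2 genes lay on opposite sides of the empty vector level. Between the ZEB1 forms, 1.33% of all measured genes were higher and 3.87% lower. No gene was higher in any of the 6 lists, and besides the pair of proteases 1 gene was lower in each of 3 lists. These were FKBP8, a membrane-bound immunophilin, at 37.4 FPKM with ZEB1 K80R and 63.6 with wild-type ZEB1, PFDN2 at 86.6 and 132, and the autophagy receptor SQSTM1 at 47.9 and 82.7.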

How the data were processed

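Gene expression was measured in 3 libraries, 1 per group. Per the labels, RNAiso Plus was used for RNA and a SMARTER mRNA kit for the libraries. The tools CASAVA, featureCounts (1.5.0-p3) and DESeq2 (1.20.0) and the build hg38 come from the submitters' processing notes, which give no roles here. Aligner and strand setting are not given in the sources used here. Values are FPKM per gene, deposited by the authors with gene lengths and coordinates. All 58735 identifiers were found in GENCODE release 29 (GRCh38), with lengths equal to the union of exons. FPKM times length was a whole multiple of 1 step per library for 100% of genes above 0, within 0.05 reads, which gave the reads. Ratios in the text are of FPKM. Their exact conditional (Clopper-Pearson) 95% intervals cover counting error only. Differences are of log2(FPKM + 1), a scale that understates low genes. Genes averaging 1 FPKM or more entered, and 1.5-fold in FPKM + 1 was counted. Recovery of reads and counts past the fold were tested on simulated data. Python 3.11.15, scipy 1.17.1 and pandas 2.3.3 were used.

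The members, compartments and lists were chosen with earlier results of these data known. Values were given for a fixed core of members, for the 5 measured members that differed most each way in a comparison, and for HSF1 and up to 3 genes per list. Further members were named to account for their family, after their values were seen. Other settings were a pseudocount of 0.1, other filters, 3 rescalings, corrections for gene length and GC content (20 bins each), a 2-fold mark, and leaving out HSPA1A, HSPA1B and HSPA14 or all members that share 10% or more of their exonic bases. The GC and shared-base settings were chosen after seeing the data.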

Additional observations from a re-analysis of the deposited data

How the results depend on the processing

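Of the counts and medians for the compartments, 170 values under other settings stayed within 1.5 times (counts) or 0.1 on the log2 scale (medians, same sign), 36 moved further and 10 changed sign, and with 1 library per group no cause was tested. A common sum of FPKM moved most. Against empty vector it gave 1 member higher and 28 lower with ZEB1 K80R (medians −0.71 cytosolic, −0.45 mitochondrial, −0.063 ER) and 1 higher and 32 lower with wild-type ZEB1 (−0.66, −0.45, −0.28). Of the 10372 measured protein-coding genes, 304 were then higher and 3260 lower with ZEB1 K80R, and 402 and 3211 with wild-type ZEB1. Much of the rise in lower members was thus a shift of all genes. A common sum without mitochondrially encoded genes gave 2 higher with wild-type ZEB1 (1006 over all measured genes) and a mitochondrial median of 0.049 with ZEB1 K80R against empty vector. Between the ZEB1 forms it gave 1 higher, 0 lower and medians of 0.23 cytosolic, 0.039 mitochondrial and 0.22 ER. Over all measured genes 375 were higher and 192 lower there. A mean of 5 FPKM or more gave 2 higher with ZEB1 K80R against empty vector (mitochondrial median −0.16, less the cytosolic one 0.14) and 1 higher with wild-type ZEB1 (mitochondrial median −0.13). Between the forms it gave a mitochondrial median of 0.0018, less the cytosolic one −0.023. With no filter, ZEB1 K80R against empty vector had a cytosolic median of −0.12, which the mitochondrial one exceeded by 0.025 and the ER one by 0.42. A 2-fold mark left 1 higher and 1 lower with ZEB1 K80R, and 1 higher and 0 lower with wild-type ZEB1, against empty vector. Over all measured genes that mark left 239 higher and 231 lower with ZEB1 K80R, and 363 and 120 with wild-type ZEB1. Between the forms, the 1 lower member became 2, with 1 higher, at a pseudocount of 0.1, and 0 under a mean of 5 FPKM, each rescaling, the length and GC corrections and the 2-fold mark. The ER minus cytosolic median, near 0 between the forms, was −0.00060 at a common sum, −0.0071 without mitochondrially encoded genes, −0.00066 by the median ratio and −0.021 with the length correction, which gave a mitochondrial median of −0.00045. Against empty vector the ER minus cytosolic median stayed between 0.42 and 0.66 with ZEB1 K80R and between 0.37 and 0.49 with wild-type ZEB1 over 10 settings. Leaving out HSPA1A, HSPA1B and both HSPA14 entries (60 members left) kept all 21 values within these limits, the cytosolic median with wild-type ZEB1 against empty vector moving to −0.31. Leaving out the 14 members that share 10% or more of their exonic bases, chosen after seeing the data, gave 3 higher with wild-type ZEB1 against empty vector and an ER minus cytosolic median of −0.015 between the forms. No paired analysis was possible because each group had 1 library, and no library could be left out.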
